A study of Mus musculus with 8 samples.

Results

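Intermediate filament genes were followed across 4 mouse tumor cell lines. The 10 genes were taken by name: the cytoplasmic filament genes Vim, Nes and Synm, the simple-epithelial keratins Krt7, Krt8, Krt18 and Krt19, and the nuclear lamins Lmna, Lmnb1 and Lmnb2. Of these, 9 were among the 18768 genes of the count table, and all 9 passed edgeR's filter on low counts, as did 15153 genes in all. Krt7 had no row. The table holds genes with at least 20 counts over the 8 libraries together. Krt7 thus had fewer than 20 counts in total, and no level per library can be given.

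The lines were cultured from soft tissue sarcomas that methylcholanthrene (MCA), a chemical carcinogen, had induced under the skin of mice. MC010 and MC011 came from IRF8 KO animals, knockouts of the transcription factor IRF8, and MC654 and MC659 from WT animals, so every line had the same carcinogen and differed in its tumor of origin. RNA was sequenced in 2 libraries per line, which gives 4 libraries against 4 but only 2 lines against 2. The study asked how the absence of IRF8 changed gene expression in tumor cells. Each line stands for a single tumor carried for at least 10 passages, so genotype and tumor of origin cannot be told apart, and nothing says whether the 2 libraries of a line were separate cultures.

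The libraries held 74063616 to 116206078 counts. Irf8 RNA went against the labels: it had 442 and 347 counts in MC010, 32 and 10 in MC011, 1 and 2 in MC654, and 1 and 0 in MC659. A count is summed over all exons, and the groups are named here by their labels. The lines were checked against marker lists. Of 12 fibroblast markers, all 12 were in the table, with a summed level of 3380 to 3530 CPM (counts after division by library size) in MC010, 6260 to 6597 in MC011, 10984 to 11667 in MC654 and 12155 to 12558 in MC659. Of 16 epithelial markers, 10 were in the table and summed to between 1.64 and 7.20 CPM, with the cadherin Cdh1 at no more than 0.394 CPM. In RNA from whole cultures, fewer cells of a type and less RNA per cell cannot be told apart.

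Intermediate filaments are rope-like polymers of rod-shaped proteins, and each cell type makes its own set. Vimentin is the filament of mesenchymal cells and nestin that of progenitor and regenerating cells, where it joins vimentin in mixed filaments. Keratins of simple epithelia form filaments only as pairs of a type II chain (keratin 7 or 8) with a type I chain (keratin 18 or 19), while lamins line the inner nuclear membrane, with A-type lamins spliced from Lmna and B-type lamins made from Lmnb1 and Lmnb2.

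The members differed among the lines in different ways. Nestin RNA was lower in both lines labelled IRF8 KO than in both labelled WT. The keratin pair Krt8 and Krt18 was highest in MC010 and lowest in MC011, with both WT lines between them. Vimentin and the lamins varied less than these. By label, Vim, Lmna and Lmnb1 were 1.31-fold, 1.39-fold and 1.25-fold higher under IRF8 KO, and Lmnb2 was 1.02-fold higher.

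The start regions of Nes, Krt8 and Krt18, the members with the largest differences between lines, are shown because these genes moved by line, the keratins together. They were taken from RefSeq on GRCm38.p6, in lower case, 5' to 3' on the gene's strand, and cover the bases of the 250 before the RefSeq start that lie upstream of any annotated exon. The motifs searched on both strands in these 250 bases were the TATA box letters TATAAA, the GC box GGGCGG, the AP-1 letters TGANTCA and the CCAAT box. Capitals mark matches, none of which overlap.
Nes, chr3:87970843-87971077, plus strand: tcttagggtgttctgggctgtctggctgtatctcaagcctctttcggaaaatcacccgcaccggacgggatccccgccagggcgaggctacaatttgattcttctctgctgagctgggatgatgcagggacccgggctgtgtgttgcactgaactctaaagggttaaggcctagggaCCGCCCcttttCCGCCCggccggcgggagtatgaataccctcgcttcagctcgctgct
Krt8, chr15:102004483-102004592, minus strand: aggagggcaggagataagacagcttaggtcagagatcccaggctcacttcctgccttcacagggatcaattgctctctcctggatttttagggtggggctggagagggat
Krt18, chr15:102027966-102028179, plus strand: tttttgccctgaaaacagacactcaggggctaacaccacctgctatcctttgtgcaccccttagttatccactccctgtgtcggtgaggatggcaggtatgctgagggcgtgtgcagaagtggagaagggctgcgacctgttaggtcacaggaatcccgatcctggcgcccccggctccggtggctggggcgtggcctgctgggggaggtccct

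The Nes window held GGGCGG, read as CCGCCC on this strand, 73 and 62 bases before the start, and 32.7% of 32851 RefSeq promoters of the same length held that motif. None of these motifs was found in the 250 bases of Krt8 or Krt18. The remaining shares were 12.4% for TATAAA, 6.75% for TGANTCA and 33.8% for CCAAT. Of the 10 members, Krt19 and Lmnb1 had no entry in the promoter table.

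Levels of different genes were set side by side as CPM per kilobase of annotated exon. That length joins the exons of all annotated transcripts, 5838 bases for Lmna, 4743 for Vim and 1437 for Krt18. The longest coding transcripts had 3156, 2193 and 1437 bases, so by transcript length Lmna and Vim would stand higher beside Krt18. Vim led in every line, at 1487 ± 98.4 (SD, n = 2 libraries) in MC010, 1136 ± 44.2 in MC011, 983 ± 38.3 in MC654 and 1018 ± 21.2 in MC659, and ranked between place 9 and place 17 of 15138 genes in single libraries. Lmna followed in every line, at 150.2 to 241 CPM per kilobase as line means, and Synm was last, at or under 0.0570. The ranks between them changed by line. In MC010, Krt18 stood at 184 ± 7.29 and Lmna at 188 ± 18.9, a difference within the spread of the libraries, with Krt8 next at 145 ± 7.05. The closeness of Krt18 and Lmna there depends on the length used. In MC011, Lmnb1 came after Lmna at 71.4 ± 0.587 and Krt8 next to last at 0.660 ± 0.0103. In MC654, Krt18 came after Lmna at 75.1 ± 0.780, and Nes stood at 33.8 ± 0.0661, and in MC659 Krt18 at 56.0 ± 3.19 lay close to Lmnb1 at 52.1 ± 1.33.

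**Figure D1:**
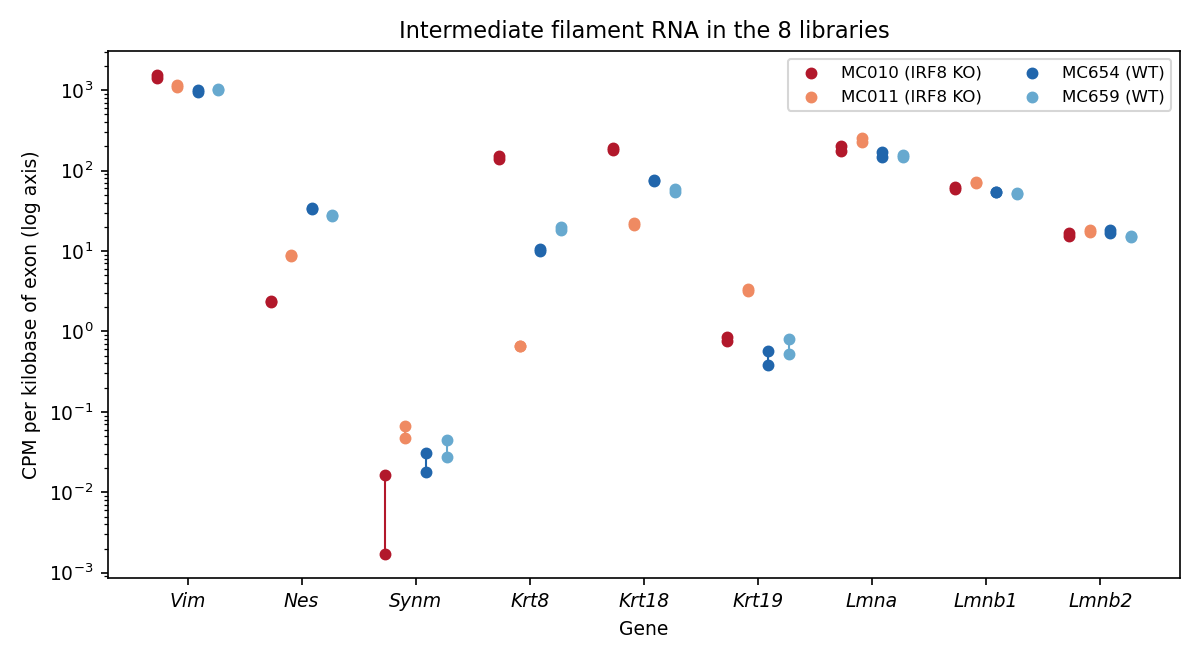
Level of the 9 measured members in CPM per kilobase of exon (log axis), with 1 point per library and the 2 libraries of a line joined by a bar. Vim stood at the top in all lines, Nes was lower in both lines labelled IRF8 KO, and Krt8 and Krt18 were highest in MC010 and lowest in MC011.

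Vim (ENSMUSG00000026728, chromosome 2, 13573927 to 13582826 of GRCm38, plus strand) codes for vimentin. Its level was 7384 and 6723 CPM in MC010, 5537 and 5240.4 in MC011, 4789 and 4532 in MC654, and 4758 and 4900.4 in MC659. All 4 libraries labelled IRF8 KO were above all 4 labelled WT, and the 2 WT lines overlapped. The label difference was 0.39 on the log2 scale (SE 0.11, 1.31-fold, edgeR quasi-likelihood adjusted p = 0.0260), under the fold threshold of 0.59 set for a call. Against both WT lines together, MC010 was higher by 0.57 (SE 0.04, adjusted p = 7.40e-09) and MC011 by 0.18 (SE 0.04, adjusted p = 0.00152), both under the threshold. The value for MC010 reached 0.64, past the threshold, without its second library and 0.5923 without the first of MC654.

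Nes (ENSMUSG00000004891, chromosome 3, 87971078 to 87980451, plus strand) codes for nestin, a long filament protein that cannot polymerise by itself. Its level was 15.4 and 14.9 CPM in MC010 and 55.9 and 56.7 in MC011, against 217 and 217 in MC654 and 175 and 181 in MC659. The groups did not overlap, the libraries of each line lay close together, and no pair of lines shared a level. By label Nes fell by 2.47 on the log2 scale (SE 0.49, 5.52-fold, adjusted p = 0.00548). In MC010 it was 12.9-fold lower than in the WT lines (log2 fold change -3.69, SE 0.05, adjusted p = 1.08e-17) and in MC011 3.49-fold lower (-1.80, SE 0.04, adjusted p = 8.46e-15). These comparisons share their WT libraries. MC010 was also below MC011, by -1.89 (SE 0.05, adjusted p = 7.52e-14), while MC654 was above MC659 by 0.29 (SE 0.04, adjusted p = 0.000426), under the fold threshold. The call by label held without any single library, with adjusted p between 0.00551 and 0.0169, and was lost without line MC654 (adjusted p = 0.0567) and on counts summed per line (adjusted p = 0.169), which leaves 2 values against 2.

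Synm (ENSMUSG00000030554, chromosome 7, 67730160 to 67759742, minus strand) codes for synemin, which links filaments to adhesion sites and joins vimentin or desmin filaments. It had 15 and 1 counts in MC010, 36 and 42 in MC011, 12 and 21 in MC654, and 19 and 32 in MC659, or 0.0136 to 0.532 CPM. The libraries of MC010 were the lowest and those of MC011 the highest, and no library had more than 42 counts. MC010 was below MC011 by -2.45 (SE 0.65, adjusted p = 0.00390) and below the WT lines by -1.53 (SE 0.61, adjusted p = 0.0371). The second of these rests on single libraries: it was -0.84 (adjusted p = 0.254) without the second library of MC010, whose single count sets it, -1.31 (adjusted p = 0.0891) without the second of MC654 and -1.33 (adjusted p = 0.0946) without the second of MC659. Without the first library of MC010 the 2 differences were -4.91 and -3.98. Exons of Synm overlap those of Ttc23 on the other strand, which stood at 9.69 to 18.4 CPM, and the strand setting of the counting is not given in the sources used here, so the part of these few reads that came from Ttc23 was not tested.

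Krt8 (ENSMUSG00000049382, chromosome 15, 101996698 to 102004482, minus strand) codes for the type II keratin of simple epithelia. Its level was 293 and 274 CPM in MC010, 1.31 and 1.28 in MC011, 19.4 and 20.7 in MC654, and 36.0 and 39.1 in MC659. No pair of lines overlapped, and the lines labelled IRF8 KO held both the highest and the lowest values. MC010 was above MC011 219-fold (7.78 on the log2 scale, SE 0.08, adjusted p = 9.54e-18). MC010 was 10.3-fold above the WT lines (3.37, SE 0.05, adjusted p = 1.49e-17), and MC011 was 21.2-fold below them (-4.40, SE 0.08, adjusted p = 4.87e-16). The WT lines differed too, with MC654 1.87-fold below MC659 (-0.91, SE 0.06, adjusted p = 8.19e-08). By label the difference was 2.31 with an SE of 1.51 (adjusted p = 0.267), with values 2 SE away of -0.71 and 5.33. It was -4.49 without line MC010 and 3.30 without line MC011. Of the 50-base stretches of the Krt8 transcript, 29.7% also occur in other annotated transcripts, those of Krt8-ps and Gm36026, so reads could have been lost or shared there.

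Krt18 (ENSMUSG00000023043, chromosome 15, 102028180 to 102032027, plus strand) codes for the type I partner of keratin 8, and the 2 genes lie 23.7 kilobases apart. Its level was 271 and 257 CPM in MC010, 30.4 and 32.4 in MC011, 109 and 107 in MC654, and 77.3 and 83.8 in MC659. The lines were again separate and had MC010 at the top and MC011 at the bottom, but the WT lines were in the opposite order to Krt8. MC010 was 8.42-fold above MC011 (3.07, SE 0.06, adjusted p = 1.91e-15). Against the WT lines MC010 was 2.83-fold higher (1.502, SE 0.04, adjusted p = 7.54e-14) and MC011 2.97-fold lower (-1.57, SE 0.05, adjusted p = 3.76e-13). MC654 was above MC659 by 0.42 (SE 0.05, adjusted p = 6.15e-05), under the fold threshold. By label the difference was 0.65 (SE 0.72, adjusted p = 0.518), and it was -1.60 without line MC010 and 1.49 without line MC011.

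The levels of Krt8 and Krt18 had the same ends but not the same spacing. Their log2 ratio in CPM was 0.10 ± 0.013 (SD, n = 2) in MC010, -1.10 ± 0.00042 in MC659, -2.43 ± 0.077 in MC654 and -4.60 ± 0.086 in MC011. The 4 lines did not overlap in this ratio. It is not corrected for length, and per kilobase of exon the level of Krt18 was above that of Krt8 in all 4 lines, with the smallest distance in MC010 and the largest in MC011. Over the 8 libraries of 4 lines, the log2 CPM of the 2 genes had a Pearson's r of 0.965, as a description, since libraries of a line are not independent. Of 22 genes tested within 500 kilobases of Krt8, Krt18 included, 5 were called higher and 3 lower in MC010 than in MC011, with a median of 0.16, beside 15.7% and 16.0% of all genes tested. Their log2 fold changes ran from -2.70 to 7.78, the highest in a gene other than Krt18. By label the same window held 2 called higher and 1 lower, beside 13.7% and 8.72% of all genes tested. These neighbours were looked at after the keratin values were known.

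Krt19 (ENSMUSG00000020911, chromosome 11, 100140810 to 100148665, minus strand) codes for the smallest type I keratin of simple epithelia. Its level was 1.40 and 1.58 CPM in MC010, 5.87 and 6.20 in MC011, 0.719 and 1.05 in MC654, and 0.974 and 1.48 in MC659. MC011 stood above all other lines, while the libraries of MC010 overlapped those of MC659. MC011 was 5.79-fold above the WT lines (2.53, SE 0.17, adjusted p = 3.87e-09), and MC010 was 4.07-fold below MC011 (-2.03, SE 0.21, adjusted p = 5.19e-07). MC010 was above the WT lines by 0.51 (SE 0.20, adjusted p = 0.0321), under the fold threshold. By label Krt19 was called higher at 1.83 (SE 0.55, adjusted p = 0.0324), but the call was lost without either library of MC011, of MC654 or of MC659, with adjusted p from 0.0522 to 0.0876 and values from 1.47 to 2.04. Without line MC011 the difference was 0.50 (adjusted p = 0.157).

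**Figure D2:**
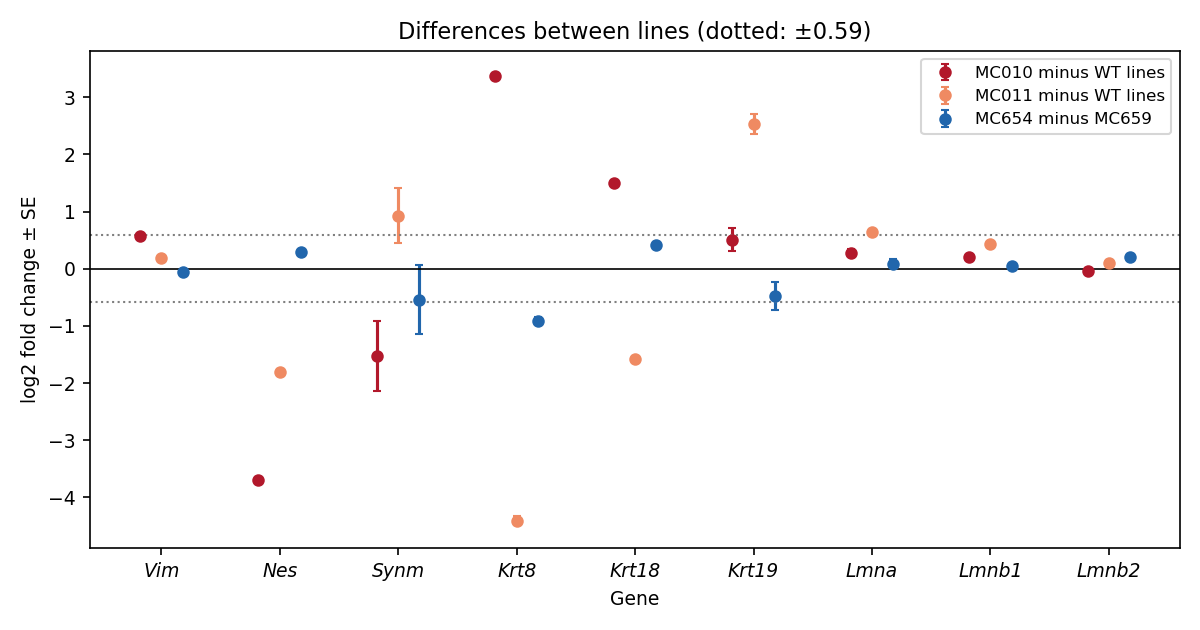
log2 fold change ± SE of each member from the edgeR fit with 1 group per line, for MC010 and MC011 each against the 4 WT libraries and for MC654 against MC659, with dotted lines at the fold threshold. Krt8 and Krt18 lay at 3.37 and 1.502 in MC010 and at -4.40 and -1.57 in MC011, Nes was below 0 in both, and Vim, Lmnb1 and Lmnb2 lay inside the dotted lines.

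Lmna (ENSMUSG00000028063, chromosome 3, 88480147 to 88509956, minus strand) codes for the A-type lamins, which stiffen the nucleus. Its level was 1179 and 1022 CPM in MC010, 1487 and 1328 in MC011, 996 and 871 in MC654, and 852 and 902 in MC659. The libraries labelled IRF8 KO were all above those labelled WT, and the 2 WT lines overlapped. By label the difference was 0.47 (SE 0.12, 1.39-fold, adjusted p = 0.0145). MC011 was above the WT lines by 0.64 (SE 0.06, adjusted p = 3.96e-07), a call that became 0.55 and fell under the fold threshold without its first library, and MC010 by 0.28 (SE 0.06, adjusted p = 0.00103). MC010 was below MC011 by -0.35 (SE 0.07, adjusted p = 0.000709).

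Lmnb1 (ENSMUSG00000024590, chromosome 18, 56707813 to 56753424, plus strand) codes for lamin B1, which falls in senescent cells. Its level was 185 and 177 CPM in MC010, 210.2 and 213 in MC011, 161 and 159 in MC654, and 157 and 152 in MC659. MC011 was highest, MC010 next, and both were above both WT lines. The label difference was 0.32 (SE 0.07, 1.25-fold, adjusted p = 0.00866), that of MC010 against the WT lines 0.21 (SE 0.04, adjusted p = 0.000188) and that of MC011 0.43 (SE 0.04, adjusted p = 7.87e-08), none past the fold threshold.

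Lmnb2 (ENSMUSG00000062075, chromosome 10, 80901203 to 80918245, minus strand) codes for lamin B2. Its level was 71.5 and 66.0 CPM in MC010, 77.5 and 73.2 in MC011, 78.4 and 72.8 in MC654, and 64.3 and 66.7 in MC659. The label groups overlapped throughout, and the difference was 0.03 (SE 0.08, adjusted p = 0.799), with values 2 SE away of -0.13 and 0.19. Of the 4 comparisons between lines, the one with an adjusted p under 0.05 was that of MC654 above MC659, by 0.21 (SE 0.06, adjusted p = 0.0267).

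The log2 ratio of Lmna to the sum of Lmnb1 and Lmnb2 was 2.14 ± 0.090 (SD, n = 2) in MC010, 2.29 ± 0.109 in MC011, 1.99 ± 0.106 in MC654 and 1.99 ± 0.073 in MC659. Single libraries ran from 2.07 to 2.37 under the label IRF8 KO and from 1.91 to 2.06 under WT. In CPM the groups thus did not overlap, by a gap smaller than the SD within any line. Per kilobase of exon they did overlap, with 1.220 in the second library of MC010 and 1.235 in the first of MC654. The separation therefore depends on the unit, and with 4 libraries of 2 lines each no test was made of it.

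**Figure D3:**
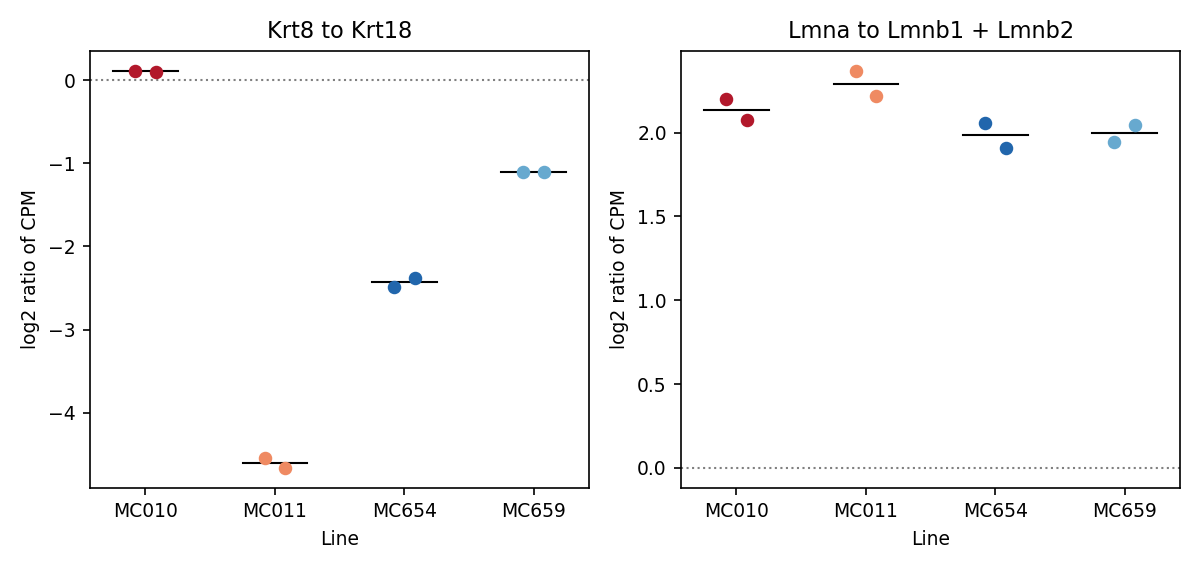
log2 ratio of CPM in each library, for Krt8 to Krt18 on the left and for Lmna to the sum of Lmnb1 and Lmnb2 on the right, with points for the 2 libraries of a line and a bar at their mean. The keratin ratio ran from 0.10 in MC010 to -4.60 in MC011, and the lamin ratio kept between 1.91 and 2.37 in all libraries.

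Counted over the family, 2 of 9 members were called by label at an adjusted p under 0.05 and a log2 fold change over 0.59 in size, Krt19 higher and Nes lower, beside 22.5% of all genes tested. The libraries did not overlap for 4 of 9 members, Lmna, Lmnb1, Nes and Vim, beside 42.5% of all genes. Their median log2 fold change was 0.39, against 0.02 over all genes tested. Of the 9, 5 were called between MC010 and MC011 (31.6% of all genes), 1 between MC654 and MC659 (4.95%), 4 for MC010 against the WT lines (37.1%) and 5 for MC011 against them (30.7%). The last pair of comparisons shares the WT libraries. By label the members' share was near that of all genes, and with 9 members the other shares are counts and not a result about the family.

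The other filament genes, 41 keratins, neurofilament genes and relatives, had 21 rows in the table and 13 genes that passed the filter. By label, 6 of the 13 were called higher and 1 lower, with a median of 1.25 against 0.02 over all genes tested, and 13.7% and 8.72% of all genes tested were called in these directions. Among those called, Krt13 and Krt15 passed the filter through the libraries labelled IRF8 KO and Krt16 through those labelled WT, where each was high. The list also varied within labels. Between MC654 and MC659, 1 was called higher and 5 lower, with a median of -0.76, where 4.95% of all genes were called. Between MC010 and MC011, 3 were called higher and 3 lower, where 15.7% and 16.0% of all genes were. Nefl, the light neurofilament chain of neurons, stood at 90.7 and 88.9 CPM in MC010, 12.1 and 13.4 in MC011, 5.62 and 5.28 in MC654, and 0.974 and 1.09 in MC659 (3.98, SE 0.97, adjusted p = 0.0137). Its level in MC010 stood far above the other lines, and the WT lines differed from each other by 2.40 (SE 0.11). Nefm, the medium chain, was higher by 2.32 (SE 0.35, adjusted p = 0.00148), from 2.07 to 3.07 CPM under the label IRF8 KO and from 0.306 to 0.756 under WT.

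Among keratins of stratified epithelia, Krt10 was called higher by 1.25 (SE 0.26, adjusted p = 0.00668) and Krt80 by 0.72 (SE 0.18, adjusted p = 0.0148), with at most 8.05 CPM. Krt13 was called higher, at 0.736 to 1.40 CPM under the label IRF8 KO and 0.0588 to 0.193 under WT. With 10, 5, 17 and 10 counts in the WT libraries, it passed the filter through those labelled IRF8 KO, and its fold is not given. Krt16, a keratin of wounded skin, was called lower, at 0.0272 to 0.394 CPM under the label IRF8 KO and 0.835 to 2.15 under WT. With 20, 2, 38 and 19 counts under the label IRF8 KO, it passed the filter through the WT libraries, and its fold is not given. Krt15 had 310 and 201 counts in MC010, 17 and 16 in MC011, and 0, 4, 0 and 0 in the WT libraries. It passed the filter through the libraries labelled IRF8 KO. It too was called higher, but its fitted fold depends on the near-empty WT libraries and is not given.

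A few keratins were read in MC010 and at 0 counts in the other 6 libraries. These were Krt6a, with 292 and 222 counts, Krt20, with 84 and 40, and Krt12, with 63 and 19. With 3 counts per library as the floor, their mean level in MC010 was at least 73.4-fold, 16.8-fold and 10.7-fold higher. They did not pass the filter and were not tested. In MC011 the neuronal filament gene Ina stood out at 9.05 and 8.53 CPM, beside 0.114 to 1.36 in the other lines. MC010 and MC011 thus differed in which filament genes were read as well as in level.

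**Figure D4:**
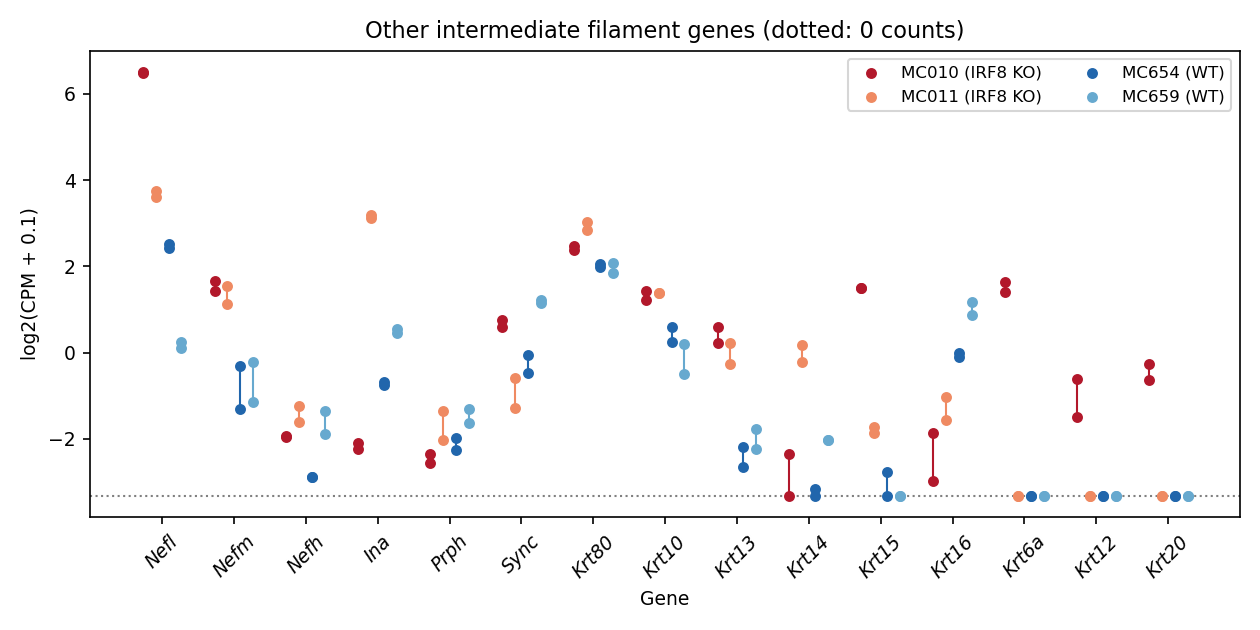
log2(CPM + 0.1) of 15 other filament genes in each library, 2 points per line, with a dotted line at 0 counts. Nefl was highest in MC010, Ina in MC011, and Krt6a, Krt12 and Krt20 were above the dotted line in MC010 only.

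Genes that tie filaments to junctions and to other cytoskeletal fibres were next compared: of 15 cytolinker and desmosome genes, 14 were in the table and 12 were tested. By label, 4 were called higher and 2 lower, with a median of 0.07, beside 13.7% and 8.72% of all genes tested. Ppl, periplakin, a plakin that binds filaments at the cell border, stood at 9.74 and 7.99 CPM in MC010, 62.7 and 63.2 in MC011, 0.683 and 1.26 in MC654, and 2.47 and 2.66 in MC659 (4.34, SE 0.87, adjusted p = 0.00582). Pkp2, plakophilin 2, a desmosomal plaque protein, stood at 10.1 and 9.84 CPM in MC010 and 3.62 and 4.10 in MC011, against 49.7 to 69.2 in the WT libraries, a difference of -3.10 (SE 0.38, adjusted p = 0.000594). Pkp3 was higher by 1.30 (SE 0.37, adjusted p = 0.0262). Evpl and Perp were called higher and Dsc2 lower, each at under 2.5 CPM in all libraries. Evpl passed the filter through the libraries labelled IRF8 KO and Dsc2 through those labelled WT, where each was high. Dsp, desmoplakin, which anchors keratin filaments at desmosomes, had at most 0.506 CPM and was not tested. Plec, plectin, which cross-links vimentin and keratin filaments, was not called by label (0.62, SE 0.30, adjusted p = 0.144), but MC011 was above the WT lines by 1.09 (SE 0.06, adjusted p = 7.32e-10).

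Lamins hold on to inner nuclear membrane proteins and, through the LINC complex of SUN and nesprin proteins, to the cytoskeleton. Of 23 such genes and lamin-processing enzymes, 21 were tested, and by label 2 were called, both higher, with a median of 0.18. Of all genes tested, 13.7% were called higher and 8.72% lower by label. Syne1, nesprin 1, stood at 257 and 267 CPM in MC010, 107 and 101 in MC011, and 75.2 to 82.5 in the WT libraries (1.21, SE 0.34, adjusted p = 0.0235). Rce1, the protease that trims farnesylated lamins, stood at 38.8 and 33.4 CPM in MC010, 27.0 and 27.8 in MC011, and 17.0 to 18.9 in the WT libraries (0.82, SE 0.12, adjusted p = 0.00146). Sun1 missed the fold threshold at 0.589 (SE 0.07, adjusted p = 0.000428). The nesprins went different ways between the lines labelled IRF8 KO, with Syne1 higher in MC010 than in MC011 by 1.33 (SE 0.05) and Syne2 and Syne3 lower by -0.68 (SE 0.05) and -1.51 (SE 0.06).

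Krt8, Krt18 and Krt19 are made by epithelia and by mesothelium, the lining of body cavities, so markers of both were set beside them. The epithelial sum was 2.16 to 2.74 CPM in MC010, where Krt8 was highest, and 7.15 to 7.20 in MC011, where it was lowest. Of the 7 epithelial markers tested, 3 were called higher and 3 lower in MC010 than in the WT lines, where 19.7% and 17.4% of all genes tested were called in these directions. The higher ones were Ocln, at 0.901 and 0.803 CPM in MC010, the transcription factor Grhl2, at 1.02 and 0.694 CPM (1.70, SE 0.33), and Epcam, at 0.367 and 0.313 CPM (1.24, SE 0.39). In MC011, Ocln stood at 1.29 and 1.00 CPM, Grhl2 at 0.114 and 0.101, and Epcam at 1.19 and 0.797. Ocln had 2, 0, 18 and 8 counts in the WT libraries. It passed the filter through the libraries labelled IRF8 KO, and its fold is not given. The lower ones were Cdh1, at 0.0175 and 0 CPM, Esrp2, at 0.0437 and 0.0136 CPM, and Cdh3, at 0.236 and 0.218 CPM, and Esrp1, not tested, was at 0 in both libraries of MC010. Of 9 mesothelial markers, 2 were in the table. Msln, mesothelin, stood at 222 and 218 CPM in MC010, 2.21 and 2.03 in MC011, and 29.5 to 31.0 in the WT libraries. Like Krt8 and Krt18 it was highest in MC010 and lowest in MC011, but the WT lines overlapped. Pdpn lay between 104 and 158 CPM in all lines. The other 7, which include the defining transcription factor Wt1, had no row. The part of either cell type in the keratin values was not tested. The fibroblast sum was lower in the lines labelled IRF8 KO, as Nes was, but Fn1 carried that order for MC011. Without Fn1, the other 11 markers summed to 2238 to 2366 CPM in MC010, 4329 to 4485 in MC011, 3205 to 3535 in MC654 and 4269 to 4461 in MC659, so that MC010 alone was below the WT lines. Of the 11 markers tested, which include Fn1 and leave out Lum, 5 were called higher and 2 lower in MC011 than in the WT lines, with a median of 0.45, where 17.3% and 13.4% of all genes tested were called in these directions. In MC010, 2 were called higher and 5 lower than in the WT lines, with a median of -0.45, where those shares were 19.7% and 17.4%. By label, 3 were called higher and 1 lower, beside 13.7% and 8.72% of all genes tested. The higher ones were the receptor Pdgfra at 3.82 (SE 0.70, adjusted p = 0.00376), S100a4 at 2.17 (SE 0.34, adjusted p = 0.00180) and Thy1 at 1.93 (SE 0.63, adjusted p = 0.0417). The lower one was Fn1, fibronectin, at -2.33 (SE 0.22, adjusted p = 0.000159). The part of the fibroblast list in the Nes values was not tested.

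The genes most like each member were those with the highest Pearson's r of log2(CPM + 0.1) over the 8 libraries, among 10993 genes with a mean log2 CPM of at least 1. For Nes these were Ldha (r = 0.999), Ctgf and Dera, and 88 genes had an r over 0.99. For Krt8 they were Agpat4 (r = 0.998), Rps27 and Tmem37, and for Krt18 Sgpl1 (r = 0.996), Akirin1 and Nsmaf. Vim was followed by Rhobtb2 (r = 0.994), Dnal4 and Cep131, Krt19 by Arl6ip5 (r = 0.987), Tcta and Ets1, and Synm by Sphk1 (r = 0.972), Pigp and Tvp23b. Lmna was followed by Cep170b (r = 0.992), Zfp384 and Mcat, Lmnb1 by Plekhg4 (r = 0.994), Pcbd2 and Alyref, and Lmnb2 by Cactin (r = 0.985) and Acot7. Within the family, Vim and Nes had an r of -0.966 and Lmna and Lmnb1 of 0.956. The 8 points are 4 lines with 2 libraries each, so genes that rank the lines alike reach such values easily, and no test was made.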

How the data were processed

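RNA was measured in 8 libraries of 4 lines. Per the labels, the authors aligned reads to mm10 (GRCm38.p6) with STAR 2.7.3a and counted them per gene with HTSeq 0.11.2; the strand option is not given in the sources used here, and the study's text names other versions. They deposited raw counts per gene and a signal, the count divided by a size factor per library. The signal was not used in any test. The table's other columns hold the authors' own DESeq2 comparison (fold changes and p-values) and were not used. Columns of per-sample values left without a library numbered 0.

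Raw counts of 18768 genes were analysed in R 4.3.3 with edgeR 4.0.16: filterByExpr by label kept 15153 genes, TMM scaled the libraries, and a robust quasi-likelihood fit compared labels, or lines with 1 group per line. CPM are counts divided by the TMM-scaled library size and brought to a common scale. Benjamini-Hochberg adjustment ran over all genes tested. A gene was called at an adjusted p under 0.05 and a log2 fold change over 0.59 in size. Standard errors came from the fold change and the F statistic. The fits were tested on simulated data. These gave all libraries the same mean per gene apart from the planted changes, with the spread between libraries of a line. They held no difference between lines of a label, so they do not check the label test against such differences. The label test treats 4 libraries as replicates although they come from 2 lines, and p-values measure the spread between libraries, which may be technical. Replicate libraries differed by more than counting noise (chi-square per degree of freedom 6.59 to 11.0).

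Members and gene lists were chosen with earlier results of these data known. By the rule used, all members are named in every library. Of each list it names up to 4 genes called in each direction by label with a mean log2 CPM of at least 0. It also names genes at 0, of which not all are given here. Krt12, Krt20, Krt6a, Ina, the genes of low level and those given as not called were named after their values were seen. An item that the rule for like genes would name, and a sequence, are not reported here. Exon lengths and positions are from GENCODE M21 (GRCm38), where 18742 IDs of the table were found. Muscle, neural, endothelial and hematopoietic lists summed to at most 8.35, 113, 14.7 and 11.5 CPM. Of 4 neural markers tested, 1 was called higher by label and 1 lower, beside 13.7% and 8.72% of all genes tested. By label, 1 of 2 muscle markers and 3 of 6 endothelial markers tested were called higher and 0 lower. Of 2 hematopoietic markers tested, 0 were called higher and 1 lower. Sox2 stood at 64.0 and 63.3 CPM in MC010, 3.04 and 2.43 in MC011, and at most 0.623 under WT. Ncam1 stood at 18.5 to 37.6 CPM under IRF8 KO and 62.6 to 78.6 under WT. Tubb3, not called by label, stood at 70.9 and 62.6 CPM in MC011 and 1.72 and 0.830 in MC010. The muscle marker called was Pax3, at 2.44 to 7.67 CPM under IRF8 KO and 1 to 4 counts per WT library. Of the endothelial markers called, Egfl7 stood at 9.65 to 12.2 CPM under IRF8 KO and 2.32 to 3.16 under WT. Pax3 and the other endothelial markers called, Tie1 and Tek, passed the filter through the libraries labelled IRF8 KO. A floor of 3 counts is 0.0262 to 0.0408 CPM and covers counting error only. The fibroblast sum without Fn1 was added after the data had been seen. Alternatives were other scalings, no filter, DESeq2 1.42.0, limma 3.58.1 (voom) with line as random block, line sums, and libraries or lines left out. The deviations of same-numbered libraries correlated between -0.0273 and 0.0552, so the numbers do not pair libraries.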

Additional observations from a re-analysis of the deposited data

Results flagged for a closer look

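For 5 members, the difference from the WT lines was not the same in MC010 and MC011 by adjusted p and fold threshold together. The test was edgeR's quasi-likelihood test of the difference itself with Benjamini-Hochberg adjustment, and 31.6% of all genes tested passed both limits. By adjusted p alone it was 8 members, with Vim, Lmna and Lmnb1 added, beside 63.0% of all genes tested. The difference between MC010 and MC011 was 7.78 on the log2 scale for Krt8 and 3.07 for Krt18. These 2 genes lay on opposite sides of the WT lines in the 2 lines. It was -1.89 for Nes, which was lower in both, -2.03 for Krt19, and -2.45 for Synm, which rests on 1 to 42 counts per library. Both differences use the same WT libraries, so the test is that of MC010 against MC011. No library stood apart within a group of 4 in the way that would have listed it here.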

How the results depend on the processing

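The counts of members called kept within 1.5 times of the reported ones under 61 of 76 settings. DESeq2, other scalings and no filter gave the same counts. Without the fold threshold, 5 members were called by label (37.5% of all genes tested), 8 between MC010 and MC011 (63.0%), 4 between MC654 and MC659 (14.5%), 8 for MC010 against the WT lines (70.6%) and 7 for MC011 (65.3%). With single libraries left out, the count was 1 to 2 by label, 5 between MC010 and MC011, 1 between MC654 and MC659, 4 to 5 for MC010 against the WT lines, and 4 to 5 for MC011. By label it was 5 without line MC010, 0 without MC654 and 1 without MC659, 0 on counts summed per line (0 genes of any kind were called there, with 3361 at an unadjusted p under 0.05), and 1 with limma-voom and the line as random block (Nes, adjusted p = 0.00148). The cause was not tested. With library numbers used as a replicate block, which the pairing check did not bear out, the counts were 2, 5, 1, 4 and 5, with no call changed.

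Of 684 fold changes, 629 kept their direction and side of the threshold, 22 passed it newly, 17 lost it and 16 changed sign. By label, Lmnb2 was -0.0066 without the first library of MC011, -0.012 without the first of MC659, -0.032 without line MC011 and -0.069 without MC659, with a range of -0.012 to 0.084 over the libraries left out. Synm was -0.10 and -0.46 without the first and second library of MC011, -0.06 without the first of MC654 (range -0.46 to 0.50), -1.57 without line MC011, -0.12 without MC654 and -0.20 with limma-voom. Krt8 was -4.49 and Krt18 -1.60 without line MC010, and -0.34 and -0.020 with limma-voom. Lmna between MC654 and MC659 was -0.0097 without the first library of MC654 (range to 0.18), and Lmnb2 for MC010 against the WT lines 0.026 without the second of MC010 (range from -0.093). With 0.5 CPM added, the log2 ratio of Krt8 to Krt18 moved to -4.15 in MC011 and -1.09 in MC659. With single libraries left out it ran from 0.094 to 0.113 in MC010, -4.66 to -4.54 in MC011, -2.48 to -2.38 in MC654, and stayed at -1.10 in MC659; the lamin ratio ran from 2.07 to 2.20, 2.22 to 2.37, 1.91 to 2.06 and 1.94 to 2.05 in the same order.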
